A study of Mus musculus with 10 samples.

Results

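The 9 genes described here are the PPAR receptors Ppara, Ppard and Pparg, their obligate partners Rxra and Rxrb, the coactivators Ppargc1a and Ppargc1b, the corepressor Ncor1 and the nuclear receptor Esrra. They were taken by gene name from a table of 56748 genes, in which each of the 9 symbols has 1 row. RNA came from mouse colon organoids, epithelial cultures grown from crypt cells, of which 5 libraries received vehicle (replicates 1 to 5) and 5 received WY-14643 at 100 µM (replicates 6 to 10). Treatment began 3 days after passage and lasted 2 days in both groups. WY-14643 is a synthetic agonist that prefers PPARα over the other PPAR forms, and the comparison asks what it does to expression in colon epithelium. No source used here gives the strain, age or genotype of the mice or the number of organoid lines, so the spread between replicates may be technical.

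PPARs are nuclear receptors that bind fatty acids and related ligands, pair with an RXR and sit on response elements made of a repeated half-site. Without ligand the pair recruits corepressors such as NCoR1, and with ligand it exchanges them for coactivators. PPARα drives fatty acid oxidation in liver, heart and intestine, PPARδ is widely expressed, and PPARγ is the regulator of adipocyte formation that colon epithelium also expresses. The PGC-1 proteins, encoded by Ppargc1a and Ppargc1b, coactivate PPARs and ERRα, the product of Esrra, which controls mitochondrial genes.

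The sequences upstream of the 3 receptor genes are shown because their RNA levels differ so widely. They are RefSeq sequences of build GRCm38.p6, not the mm39 build of the expression table, and run 250 bases up to the annotated start, 5′ to 3′ on the strand of the gene. Capitals mark the GC box (GGGCGG or its complement CCGCCC) and the nuclear receptor half-site (AGGTCA or its complement TGACCT). The Ppara stretch is chr15:85735526-85735775, the Ppard stretch chr17:28232504-28232753 and the Pparg stretch, the first of 3 annotated starts, chr6:115360894-115361143, all on the + strand.
Ppara: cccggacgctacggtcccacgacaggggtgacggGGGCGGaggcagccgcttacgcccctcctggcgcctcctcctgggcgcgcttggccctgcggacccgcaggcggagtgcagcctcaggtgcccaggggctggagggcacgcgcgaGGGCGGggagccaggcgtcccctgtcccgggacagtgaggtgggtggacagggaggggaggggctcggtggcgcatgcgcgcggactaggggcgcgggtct
Ppard: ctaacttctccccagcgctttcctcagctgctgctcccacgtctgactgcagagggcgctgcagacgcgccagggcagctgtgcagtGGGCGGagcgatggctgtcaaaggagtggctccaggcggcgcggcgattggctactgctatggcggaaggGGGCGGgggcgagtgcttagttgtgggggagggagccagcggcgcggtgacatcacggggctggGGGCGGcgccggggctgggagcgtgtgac
Pparg: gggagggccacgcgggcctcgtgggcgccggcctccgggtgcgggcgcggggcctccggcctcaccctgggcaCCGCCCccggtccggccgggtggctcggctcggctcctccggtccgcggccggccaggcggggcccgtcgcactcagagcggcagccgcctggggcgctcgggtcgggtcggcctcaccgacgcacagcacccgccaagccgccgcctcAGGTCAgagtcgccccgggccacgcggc
All 3 stretches were rich in G and C, at 76.4%, 69.6% and 82.4%, against a median of 52.4% over 32851 upstream sequences. They held 27, 22 and 38 CG pairs, where the median was 6. The stretch of Ppara, the gene with the lowest RNA level of the set, was as rich in CG pairs as that of Ppard. Whether these starts are used in the organoids was not tested, nor was any part of the sequences in the RNA levels. The half-site was found once in the Pparg stretch, 28 bases before the start, and in neither of the others. Over all upstream sequences searched on both strands, 14% held AGGTCA and 32.7% held GGGCGG. RefSeq upstream sequences were taken for 8 of the 9 genes, 13 in all. The 8 were Ppara, Ppard, Pparg, Rxra, Rxrb, Ppargc1a, Ncor1 and Esrra. The remaining gene of the set was left out of this search, so the motif counts do not cover it. Of these 13, the half-site was in 3 and the GC box in 9. The repeat AGGTCANAGGTCA, on which PPAR and RXR pairs sit, was in 0 of the 13 and in 0.0335% of all, and the extended half-site TCAAGGTCA that ERRα prefers was in 0 of the 13 and in 0.387% of all. Both longer motifs contain the half-site.

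Levels are given in FPKM, the deposited unit, which scales fragments by gene length so that genes can be compared within a library. Behind them stood 15618244 to 29271304 recovered reads per library, and 11845 to 12199 genes reached 1 FPKM in each. The tissue label held: the summed level of 8 colon epithelium genes, led by the keratins Krt8 and Krt18, ran from 2437 to 4808 FPKM. Fibroblast, endothelial, and muscle and nerve lists summed to at most 0.284, 0.164 and 0.189 FPKM, led by Col1a1 and Vim, Vwf and Pecam1, and Tubb3 and Acta2. Among 6 immune genes, Cd68 was at 1.99 to 6.35 FPKM, while Adgre1, Cd3e and Lyz2 were at 0 and the next most abundant, Cd79a, was at 0.0771 FPKM at most. Of 5 adipocyte genes Adipoq, Plin1, Lep and Cfd were at 0 in all 10 libraries, and Retn was at 0.0872 FPKM at most. In bulk RNA, fewer cells of a type and less RNA per cell cannot be told apart.

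Ppara, the gene of the receptor that WY-14643 prefers, had the lowest level of the 9. Its vehicle libraries, replicates 1 to 5, held 0.137, 0.566, 0.309, 0.149 and 0.328 FPKM. The WY-14643 libraries, replicates 6 to 10, held 0.197, 0.621, 0.219, 0.249 and 0.394 FPKM. Replicates 2 and 7 were the highest of their groups, replicates 1 and 6 the lowest, and the groups overlapped. These levels rest on 9 to 63 reads per library. The 95% exact Poisson interval, which covers counting error only, was 0.0627 to 0.260 FPKM in vehicle replicate 1 and 0.435 to 0.723 FPKM in vehicle replicate 2, so these libraries differed by more than counting error. The mean over all 10 libraries put Ppara at percentile 48.0 of 21970 protein-coding genes, many of which have no reads here.

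**Figure D1:**
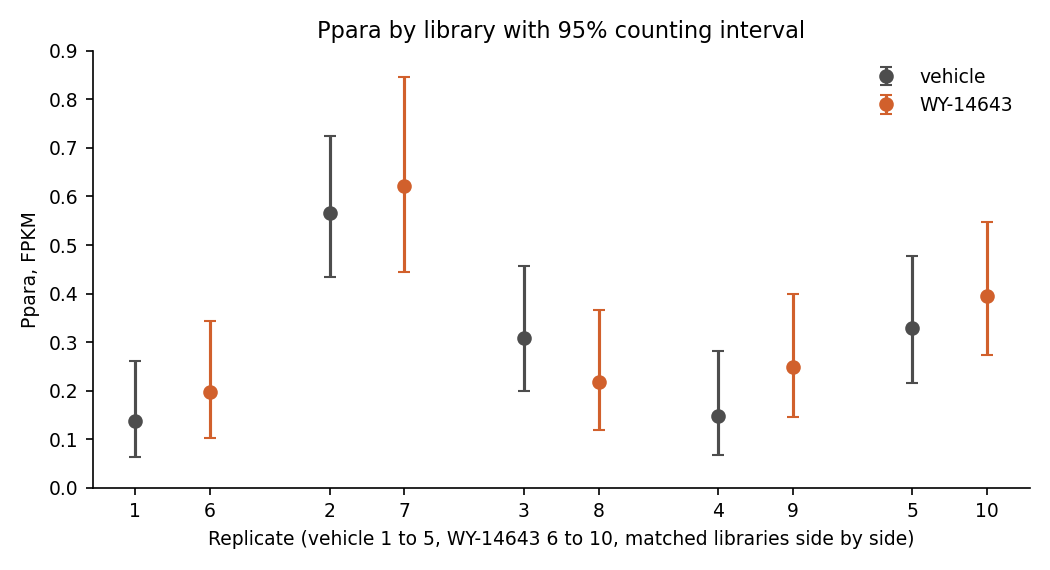
Ppara level in FPKM (vertical axis) for each library, with vehicle and WY-14643 libraries of a matched pair side by side; bars are 95% exact Poisson intervals of the recovered reads. Levels run from 0.137 to 0.621 FPKM, and the intervals overlap within every pair but not between replicates 1 and 2.

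Ppard, the form with the broadest expression among tissues, was abundant and even. It stood at 13.3, 16.7, 14.9, 13.9 and 11.2 FPKM in vehicle replicates 1 to 5 and at 15.4, 15.5, 15.7, 15.1 and 11.5 FPKM in WY-14643 replicates 6 to 10. Replicates 5 and 10 were the lowest of their groups, and the groups overlapped. Within each library Ppard exceeded Ppara by 25 to 96.9 times (median 54.5).

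Pparg had the highest mean of the set and a wide spread. Its vehicle libraries held 17.2, 51.3, 28.6, 38.0 and 9.16 FPKM and its WY-14643 libraries 22.1, 27.1, 25.4, 30.7 and 9.07 FPKM. Vehicle replicate 2 was the highest of all, and replicates 5 and 10 were the lowest of their groups. Within a library Pparg exceeded Ppara by 23.0 to 255 times, in 10 of 10 libraries. It exceeded Ppard in 8 of 10, all but replicates 5 and 10, so the order of these 2 was not the same in every library. Of the summed FPKM of the 3 receptors, Pparg took 44.4% to 74.8% in vehicle and 43.3% to 66.6% in WY-14643 libraries, Ppard 24.4% to 54.0% and 32.9% to 54.8%, and Ppara 0.286% to 1.59% and 0.523% to 1.88%. The values sum all transcripts of a gene, so the annotated starts of Pparg are not separated.

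The RXR partners were at similar levels. Rxra was at 9.18, 13.9, 11.6, 14.4 and 10.7 FPKM in vehicle and at 11.2, 12.7, 12.5, 14.4 and 9.72 FPKM in WY-14643 libraries. Rxrb was at 8.60, 14.3, 13.4, 14.8 and 12.9 FPKM and at 9.40, 13.3, 13.2, 13.7 and 14.3 FPKM. Rxrb exceeded Rxra in 7 of 10 libraries, with ratios of 0.836 to 1.47, so the 2 did not differ beyond their spread. Vehicle replicate 1 was the lowest of its group for both genes. The third family member, Rxrg, had 0 reads in all 10 libraries, which allows at most 0.0450 to 0.0828 FPKM per library at 3 reads. Rxra and Rxrb together summed to 17.8 to 29.1 FPKM without and 20.6 to 28.2 FPKM with WY-14643. The summed PPAR level over this sum ran from 0.875 to 2.43 and from 0.871 to 1.83, and replicates 5 and 10 had the lowest ratio of their groups.

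Of the 9 genes, the coactivators Ppargc1a and Ppargc1b were far scarcer than the corepressor Ncor1. Ppargc1a, which encodes PGC-1α, was at 0.532, 4.41, 1.42, 1.12 and 1.39 FPKM in vehicle and at 0.621, 3.40, 1.29, 1.07 and 1.64 FPKM in WY-14643 libraries. Replicates 2 and 7 stood above the rest of their groups, and replicates 1 and 6 were the lowest. Ppargc1b, which encodes PGC-1β, was at 1.65, 3.58, 2.0, 0.795 and 1.16 FPKM and at 1.96, 3.46, 2.37, 1.79 and 1.57 FPKM. Replicates 2 and 7 were again the highest of their groups. Ppargc1b exceeded Ppargc1a in 6 of 10 libraries, so neither was the higher throughout. These levels rest on 60 to 845 reads for Ppargc1a and 50 to 415 for Ppargc1b.

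Ncor1, whose product holds histone deacetylase 3 at unliganded receptors, was the most even member. Its libraries held 24.2, 27.1, 24.9, 29.4 and 22.9 FPKM in vehicle and 25.1, 26.2, 24.8, 28.7 and 22.8 FPKM in WY-14643. Replicates 4 and 9 were the highest and 5 and 10 the lowest of their groups. In each library it exceeded Ppargc1a by 6.14 to 45.6 times and Ppargc1b by 7.55 to 37.1 times. Its span overlaps Ttc19, Pigl and the pseudogene Gm12276 on the opposite strand, each at no more than 6.86 FPKM, and without a stated strand setting reads from shared exons cannot be told apart.

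Esrra was at 19.9, 27.0, 21.6, 25.8 and 23.1 FPKM in vehicle and at 20.1, 25.9, 25.5, 25.9 and 27.3 FPKM in WY-14643 libraries. Replicates 1 and 6 were the lowest of their groups. Esrra overlaps Trmt112 on the opposite strand by 73 bases. Of its relatives, Esrrg had 0 reads in all 10 libraries, which allows at most 0.0166 to 0.0307 FPKM per library at 3 reads, and Esrrb had 5 reads in all.

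By mean level the order was Pparg, Ncor1, Esrra, Ppard, Rxrb, Rxra, Ppargc1b, Ppargc1a and Ppara. Among neighbours in this order, 3 steps held in 10 of 10 libraries: Esrra over Ppard, Rxra over Ppargc1b and Ppargc1a over Ppara. The other 5 steps were turned round in 3 or 4 of 10 libraries, so those neighbours did not differ beyond their spread.

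**Figure D2:**
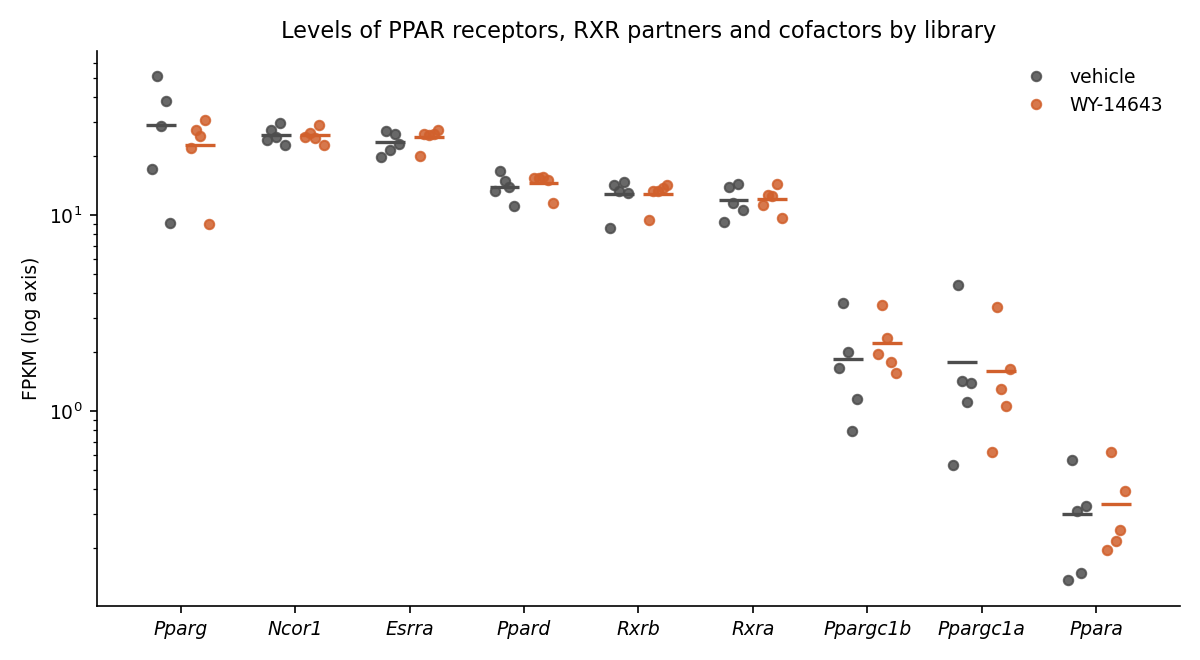
FPKM (log axis) of the 9 genes in each library, ordered by mean level; points are libraries, 5 per group, and short lines are group means. Vehicle and WY-14643 points overlap for every gene, and Ppara lies lowest, between 0.137 and 0.621 FPKM.

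WY-14643 changed none of these genes past the threshold. The test was limma on log2(FPKM + 1) over the 13607 genes with a mean of at least 0.5 FPKM, with Benjamini-Hochberg adjustment and a threshold of 0.05. Ppara missed that filter, so 8 of the 9 were tested. Of the 8, 0 rose and 0 fell, and over all genes tested 0% passed in either direction. At an unadjusted p under 0.05 there were 0 of the 8, against 1.51% of all genes tested, and voom on recovered reads also called 0 of all genes and had 1.37% at that unadjusted p. For 0 of the 9 genes did the groups separate without overlap, against 0.353% of all genes tested.

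Mean levels were close for most. Ppard averaged 14.0 ± 2.05 FPKM without and 14.7 ± 1.79 FPKM with WY-14643 (SD, n = 5 each), a log2 fold change of 0.06 with a 95% interval from -0.20 to 0.33 (limma, adjusted p = 1). Rxra, at 11.9 ± 2.18 and 12.1 ± 1.76 FPKM, had an interval from -0.28 to 0.33. Rxrb, at 12.8 ± 2.45 and 12.8 ± 1.95 FPKM, had an interval from -0.33 to 0.35. Ncor1 had the narrowest, from -0.21 to 0.20 around -0.01, at 25.7 ± 2.59 and 25.5 ± 2.16 FPKM. Esrra, at 23.5 ± 2.93 and 24.9 ± 2.79 FPKM, had an interval from -0.16 to 0.33. For these 5 genes changes of 1.5-fold (0.58 on the log2 scale) lie outside the interval.

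The intervals were wide for the genes that varied most between libraries. Pparg was at 28.9 ± 16.7 and 22.9 ± 8.32 FPKM, a log2 fold change of -0.21 with an interval from -1.20 to 0.79. Ppargc1a was at 1.78 ± 1.52 and 1.6 ± 1.07 FPKM, with an interval from -0.80 to 0.72. Ppargc1b, at 1.84 ± 1.08 and 2.23 ± 0.750 FPKM, had a log2 fold change of 0.24 with an interval from -0.31 to 0.78. At such levels the added 1 shrinks changes and intervals. With a pseudocount of 0.1 the log2 fold change was 0.38 for Ppargc1b and -0.03 for Ppargc1a. With voom on recovered reads it was 0.31 (interval -0.51 to 1.14) and -0.13 (interval -1.38 to 1.13). Ppara was at 0.298 ± 0.174 and 0.336 ± 0.177 FPKM. In the fit without a filter on low values its log2 fold change was 0.04, with an interval from -0.22 to 0.31 (limma, adjusted p = 1), on a scale that understates changes of so low a gene. That fit called 0% of 28804 genes.

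The libraries go together in pairs that the labels do not state. Across all genes tested, vehicle replicate 1 deviated from its group mean as WY-14643 replicate 6 did, replicate 2 as 7, and so on, and each library matched best with the partner 5 numbers away. Over these pairs, levels differed more than between treatments for every one of the 9 genes. Pair membership took 77.9% to 97.9% of the sum of squares between libraries, with a median of 83.6% over all genes tested, and treatment took 0.0430% to 8.76%, with a median of 2.27%. These shares are not scaled for the number of classes, and 5 pairs take a larger share than a single treatment contrast even from noise. The pair share was highest for Ppargc1a and lowest for Esrra. The treatment share was highest for Ppargc1b and lowest for Rxrb.

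With pair as a block, the intervals narrowed and again 0 of the 8 passed, against 0.316% of all genes tested. At an unadjusted p under 0.05 there were 0 of the 8, against 10.6% of all. Ppargc1b came nearest, with differences of 0.16, -0.04, 0.17, 0.64 and 0.25 in log2(FPKM + 1) from the first pair to the fifth, higher in 4 of 5 (limma with block, interval -0.003 to 0.47, adjusted p = 0.479). Pparg differed by 0.34, -0.90, -0.17, -0.30 and -0.01, lower in 4 of 5 (interval -0.60 to 0.19, adjusted p = 0.726). The pair of replicates 2 and 7 carried most of it: vehicle replicate 2 was at 51.3 FPKM and its partner at 27.1 FPKM. Ppard was higher in 4 of 5 pairs (interval -0.06 to 0.19, adjusted p = 0.733) and Esrra likewise in 4 of 5 (interval -0.05 to 0.22, adjusted p = 0.665). Ppara was higher in 4 of 5 pairs, with differences between -0.10 and 0.12, and did not pass in the block fit without a filter (limma, adjusted p = 0.839), which called 0.00694% of its 28804 genes. None of the 9 genes moved in 1 direction in 5 of 5 pairs, as 11.7% of all genes tested did.

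**Figure D3:**
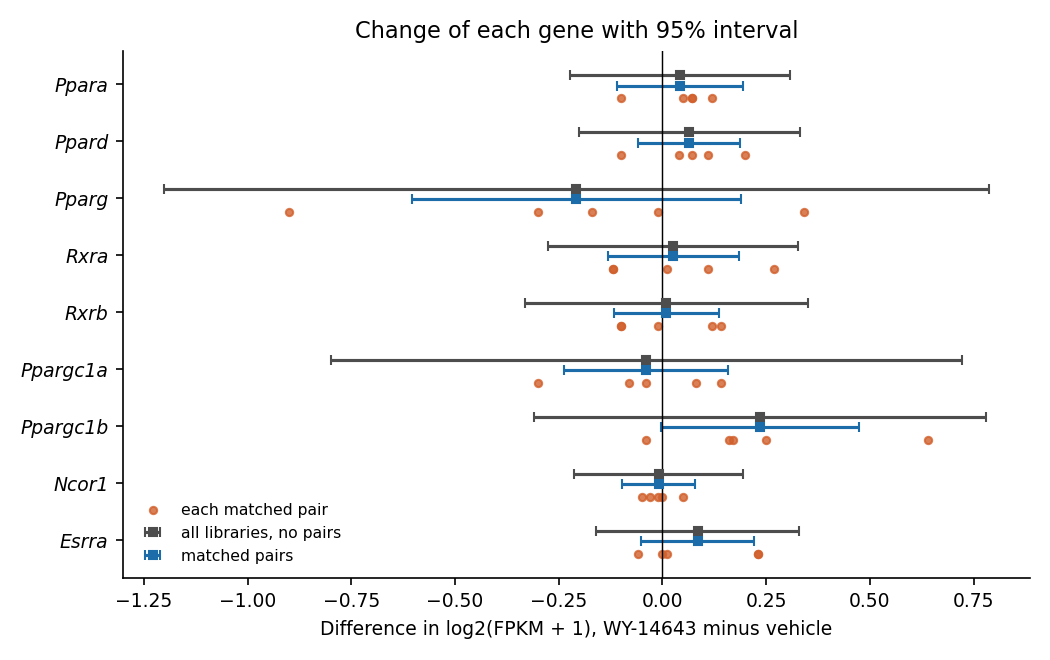
Difference in log2(FPKM + 1), WY-14643 minus vehicle, for each gene: squares are the estimates without pairs and with matched pairs, bars their 95% intervals, and round points the 5 pairs. Every interval includes 0; Ppara comes from the fits without a filter on low values.

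The genes varied between pairs in different ways. The mean level of a pair differed by up to 6.78 times for Ppargc1a, 4.30 times for Pparg, 3.55 times for Ppara and 2.73 times for Ppargc1b, and by 1.27 to 1.58 times for the other 5. Ppara and Ppargc1a were both highest in the pair of replicates 2 and 7, at pair means of 0.593 and 3.91 FPKM, and lowest in that of 1 and 6, at 0.167 and 0.576 FPKM. Pparg and Ppard were also highest in the pair of 2 and 7, at 39.2 and 16.1 FPKM, but lowest in that of 5 and 10, at 9.11 and 11.3 FPKM. Rxra and Ncor1 were highest in the pair of 4 and 9, at 14.4 and 29.1 FPKM. Ncor1 was lowest in that of 5 and 10, at 22.9 FPKM, and Rxra was at 10.2 FPKM in both that pair and that of 1 and 6.

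Summed marker RNA of the epithelial cell types differed between pairs too. The summed level of 7 genes of differentiated colonocytes, led by Car1 and Ceacam1, had pair means of 454, 1103, 570, 1412 and 153 FPKM from the first pair to the fifth. Pparg had pair means of 19.6, 39.2, 27.0, 34.4 and 9.11 FPKM. The same 2 pairs were highest and the same pair was lowest in both. In vehicle replicates 1 to 5 the colonocyte sum was 312, 1139, 471, 862 and 141 FPKM, and in WY-14643 replicates 6 to 10 it was 596, 1067, 669, 1961 and 165 FPKM. It was thus higher with WY-14643 in 4 of 5 pairs, all but that of 2 and 7, while the groups overlapped. Car1, a carbonic anhydrase and the most abundant of the list, averaged 360 FPKM without and 652 FPKM with WY-14643 and did not pass (limma, adjusted p = 1 without pairs and 0.241 with them). The sum averaged 585 and 892 FPKM, so most of its rise was that of Car1. In the rest of that list Krt20, Slc26a3 and Guca2a had higher means with WY-14643, and Ceacam1 and Aqp8 had lower means. Car4 was at 0 throughout. The sum of 6 genes of stem and dividing cells, led by Mki67 and Top2a, had pair means of 166, 80.8, 114, 41.8 and 111 FPKM, and 6 goblet genes, led by Agr2 and Tff3, of 25.8, 38.1, 73.0, 44.9 and 40.4 FPKM. Enteroendocrine and tuft genes, led by Chgb and Trpm5, summed to at most 2.14 FPKM. The part of these cell types in the levels of the receptors was not tested.

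**Figure D4:**
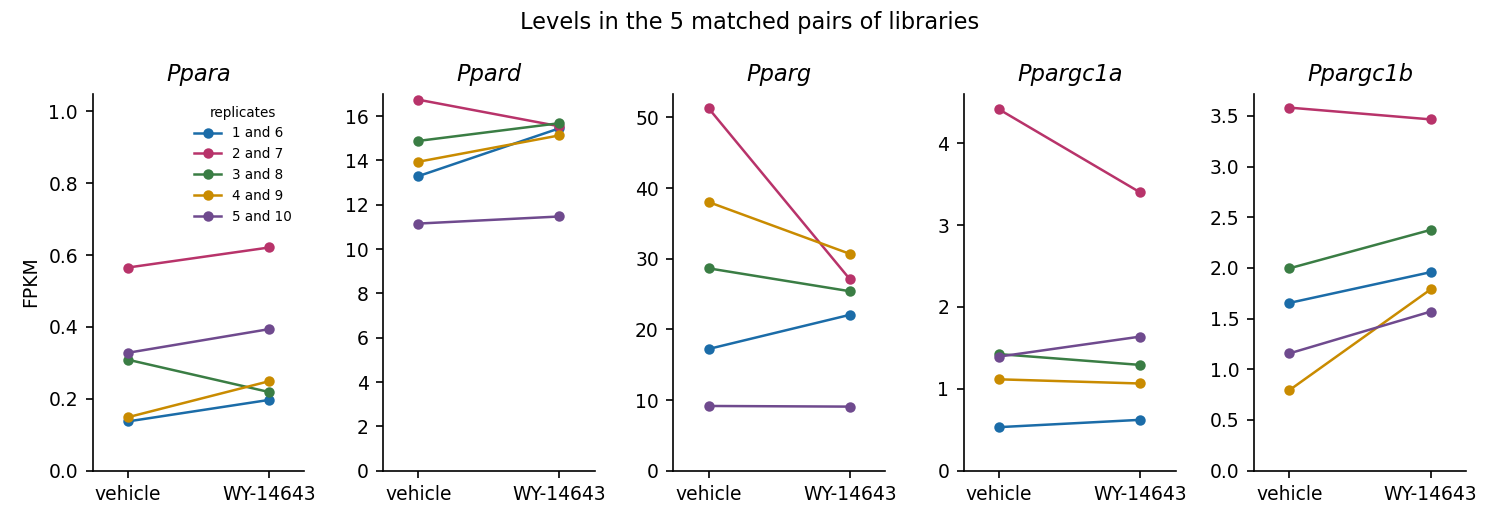
FPKM (vertical axes, each from 0) of Ppara, Ppard, Pparg, Ppargc1a and Ppargc1b in vehicle and WY-14643 libraries; each line joins the 2 libraries of a matched pair. Outside the Ppard panel the lines lie apart more than they slope. For Ppard only the line of replicates 5 and 10 lies apart, and the others draw together with WY-14643. The steepest line is that of Pparg from 51.3 to 27.1 FPKM in replicates 2 and 7.

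Among 10367 protein-coding genes with a mean of at least 1 FPKM, those most like each receptor over the 10 libraries were ranked by Pearson r of log2(FPKM + 1). The libraries share pairs and treatment, so these values describe likeness only. For Pparg they were Eml4 (r = 0.991), which encodes a microtubule-binding protein, Pgk1 (r = 0.987), the phosphoglycerate kinase of glycolysis, and Ahdc1 (r = 0.984). Pgk1 ran from 369 to 1085 FPKM, lowest in vehicle replicate 5 and highest in vehicle replicate 2, as Pparg was high in replicate 2 and low in 5 and 10. For Ppard they were L1cam (r = 0.974), a cell adhesion gene, Slc16a3 (r = 0.968), a lactate exporter, and Dip2a (r = 0.963). Slc16a3 was at 24.1 FPKM in vehicle replicate 2 and at 3.17 FPKM in vehicle replicate 5. For Ppara they were Gas6 (r = 0.968), a ligand of TAM receptor kinases, Bco2 (r = 0.965), a carotenoid-cleaving enzyme, and the ubiquitin ligase gene Itch (r = 0.963). Gas6 was at 25.3 FPKM in vehicle replicate 2 and at 4.79 FPKM in vehicle replicate 1.

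Other cofactors of the pathway were mostly near their vehicle level. Of 17 further coactivators and their helpers, all tested, 0 rose and 0 fell with or without pairs, and their median log2 fold change was -0.02 against -0.01 over all genes tested. The smallest p-values were those of Ncoa6, a scaffold of coactivator complexes, at 10.3 ± 0.872 and 9.67 ± 1.27 FPKM, and the acetyltransferase gene Kat2a, at 14.2 ± 2.31 and 13.4 ± 1.22 FPKM (SD, n = 5 each). Of 6 further corepressor genes 0 passed, with a median of -0.02. Tbl1x, a subunit of the NCoR complex, was at 37.1 ± 3.95 and 35.3 ± 3.24 FPKM and was lower in 5 of 5 pairs. Hdac3, the histone deacetylase of that complex, was at 23.0 ± 2.33 and 23.5 ± 2.46 FPKM.

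Of 9 ERR relatives and mitochondrial biogenesis factors, 7 were tested and 0 passed, with a median of -0.06. Tfb1m, a mitochondrial rRNA methyltransferase, was at 1.77 ± 0.554 and 2.22 ± 0.417 FPKM, and Gabpb1, a subunit of the factor GABP, at 5.26 ± 0.802 and 4.56 ± 0.778 FPKM. Of 12 genes in the list of Rxrg and other RXR partners, 7 were tested, with a median of 0.08, and 0 passed without pairs. With pairs as a block 1 rose, Nr1i2, the xenobiotic receptor PXR, at 5.91 ± 3.73 and 8.40 ± 4.54 FPKM (limma, adjusted p = 0.0462 with pairs and 1 without), where 0.287% of all genes tested rose. The call was lost on leaving out any 1 of the 5 pairs (adjusted p = 0.0676 to 0.206) and with no filter (0.222). Rarg, a retinoic acid receptor, missed the threshold at 11.7 ± 1.15 and 10.9 ± 0.970 FPKM.

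Among 5 transcription factors of intestinal epithelium, which include regulators of Ppara in other tissues, 0 passed and the median was 0.19. Hnf4a was at 105 ± 33.5 and 118 ± 25 FPKM and Cdx1 at 26.9 ± 5.94 and 31.0 ± 4.97 FPKM. Among 6 fatty acid-binding proteins, a retinoid carrier and kinases, 5 were tested, 0 passed and the median was 0.07. Fabp1 was at 0, 0.0623, 0, 0 and 0 FPKM in vehicle and at 1.253, 1.40, 0.759, 14.2 and 0 FPKM in WY-14643 libraries. Replicate 9 carried its WY-14643 mean of 3.53 ± 6.0 FPKM (SD, n = 5): without it that mean was 0.853 ± 0.632 FPKM (SD, n = 4), and the mean over libraries, 0.386 FPKM, missed the filter. Fabp2 was at 6.65 ± 2.32 and 11.8 ± 8.83 FPKM.

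Genes known to respond to PPAR ligands were also measured. Of 14 such genes 11 were tested, and 10 of these reached the filter by their vehicle mean alone. Those 10 all had a higher log2 mean after WY-14643, as did 47.1% of all genes tested, and their median log2 fold change was 0.58. Beside them the summed colonocyte markers, a sum that Car1 leads, were higher in 4 of 5 pairs, and the part of that shift was not tested. Without pairs 0 passed, and with pairs as a block 5 rose: Cpt1a, Cpt2, Acadl, Slc25a20 and Ehhadh, all of fatty acid oxidation (limma, adjusted p = 0.010, 0.0368, 0.0221, 0.010 and 0.0428). The share of all genes that rose in that fit was 0.287%. Of the 5 calls 3 were left without the pair of replicates 1 and 6, 1 (Cpt1a) without 2 and 7, and 0 without 3 and 8. Leaving out 4 and 9 kept 2, and leaving out 5 and 10 kept all 5. With no filter on low values 0 were left. The list was chosen knowing these results, so it is no independent evidence of direction. Cpt1a, which loads long-chain fatty acids onto carnitine, was at 8.68, 15.1, 12.3, 10.3 and 11.4 FPKM in vehicle and at 24.6, 29.5, 30.6, 26.1 and 22.1 FPKM in WY-14643 libraries, without overlap, as 0.243% of all genes tested were. Replicates 1 and 10 had the lowest levels of their groups. Angptl4, which encodes an inhibitor of lipoprotein lipase, was at 0.227 ± 0.455 and 1.11 ± 1.57 FPKM and was the 1 tested gene of the list that reached the filter only through the WY-14643 mean. The textbook PPARγ targets of adipocytes, Cd36 and Fabp4, were at no more than 0.0130 and 0.0267 FPKM in any library, while Pparg was at 9.07 FPKM or more in each. Other genes of the list were abundant: Plin2 was at 29.5 ± 11.1 and 44.2 ± 24.7 FPKM and Ucp2 at 72.0 ± 22.7 and 96.9 ± 22.8 FPKM (SD, n = 5 each).

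**Figure D5:**
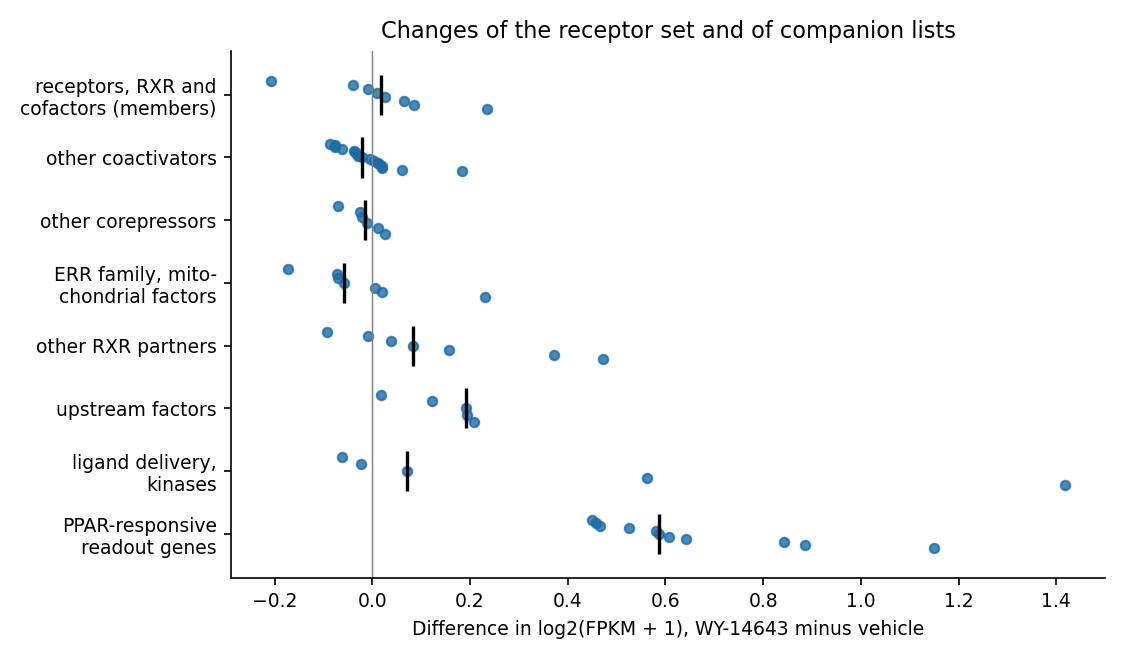
Log2 fold change, WY-14643 minus vehicle on the log2(FPKM + 1) scale, of each tested gene by list; points are genes and black lines list medians. The receptor set lies between -0.21 and 0.24, and the PPAR-responsive genes run up to 1.15 (Cpt1a).

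In build mm39, as the table gives it, Ppara lies on chromosome 15 from 85619184 to 85687020, Ppard on chromosome 17 from 28451674 to 28520448 and Pparg on chromosome 6 from 115337912 to 115467360. Rxra lies on chromosome 2 from 27566452 to 27652969, Rxrb on chromosome 17 from 34250786 to 34257373, Ppargc1a on chromosome 5 from 51611592 to 51725068 and Ppargc1b on chromosome 18 from 61431207 to 61533502. Ncor1 lies on chromosome 11 from 62207252 to 62349367 and Esrra on chromosome 19 from 6888345 to 6899208. These are whole-gene spans. The gene length behind an FPKM value is much shorter, at 3836 bases for Ppara and 2953 bases for Pparg, so a value does not cover the whole span.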

How the data were processed

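Polyadenylated RNA of 10 libraries was analysed. The deposited values are FPKM, made by the authors; the submitters' processing notes name build mm39, featureCounts 1.5.0-p3 and HISAT2 2.0.5. No source used here gives the annotation release, strand setting or scaling. Gene length came from the deposited table. FPKM multiplied by gene length was a whole multiple of 1 step per library in 100% of values above 0 (tolerance 0.01), which gave the reads.

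Genes with a mean of at least 0.5 FPKM were tested with limma 3.58.1 in R 4.3.3 on log2(FPKM + 1), with a mean-variance trend, robust priors and no covariate. Fits were tested on simulated data. Alternatives were a replicate block, a pseudocount of 0.1, no filter or a filter of 1 FPKM, rescaling to TPM, library weights, voom on recovered reads (library sizes by median ratio in place of the planned TMM), and leaving out replicates or pairs. Matched libraries deviated together (correlations across genes 0.423 to 0.782, at most 0.0602 unmatched); this pairing comes from the data, not the labels.

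The 9 genes, the 7 companion lists and the 10 marker lists were chosen with earlier results of these data known. Named genes were the 9, the 2 smallest p-values and every call in each companion list, the 3 genes most like each receptor, and the 2 most abundant markers per list. Other genes, such as Cd36, Fabp4, Angptl4 and Lpin1, were named after their values were seen. Some genes of these lists are not reported here. Figures used matplotlib 3.10.9.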

Additional observations from a re-analysis of the deposited data

Results flagged for a closer look

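In 4 of the 18 sets of 5 libraries (9 genes in 2 groups), 1 library stood apart from the other 4 by Dixon's criterion at the 95% level. Chance alone meets it in about 1 set in 20. The 18 sets come from the same 10 libraries and are not independent, so the count cannot be read as an excess. Ppargc1a was at 4.41 FPKM in vehicle replicate 2, while the other vehicle libraries ran from 0.532 to 1.42 FPKM. Ppard was at 11.5 FPKM in WY-14643 replicate 10, with the others between 15.1 and 15.7 FPKM. Rxrb was at 9.40 FPKM in WY-14643 replicate 6, with the others between 13.2 and 14.3 FPKM, and Esrra was at 20.1 FPKM in the same library, with the others between 25.5 and 27.3 FPKM. In each case the matched vehicle or WY-14643 library was also the extreme one of its group.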

How the results depend on the processing

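None of the 8 tested genes, nor Ppara where a fit included it, passed the threshold under any alternative; the lowest adjusted p was 0.415. Over 203 values under alternatives, 179 kept their direction and 24 changed sign, 23 of them on leaving out 1 library or 1 pair. With all 10 libraries, the replicate block or another filter alone returns the same log2 fold change. Those values could not change sign, so the 179 overstate how stable the directions are. Leaving out single libraries moved the log2 fold change of Ppard between -0.00879 and 0.144, Pparg between -0.542 and 0.0787, Rxra between -0.0562 and 0.0966, Rxrb between -0.116 and 0.108, Ppargc1a between -0.249 and 0.237 and Ncor1 between -0.0512 and 0.0395. With the replicate block, signs turned without the pair of replicates 1 and 6 for Rxra (-0.0339) and Rxrb (-0.0168), without 5 and 10 for Rxrb (-0.0230), and without 2 and 7 for Ppargc1a (0.0265) and Ncor1 (0.000736). Ppargc1b stayed between 0.09 and 0.43 and Esrra between 0.03 and 0.16. With library weights Rxrb was at -0.0060. The count over all genes, 0 in the test without pairs, was 43 with the replicate block and 21 with library weights, and 0 to 2 without single replicates. With the replicate block it was 2 with no filter, 40 with a pseudocount of 0.1, 217 with voom, and 33, 3, 2, 13 and 33 without the first to the fifth pair in turn; the cause was not tested. The TMM scaling planned for voom was not run, and median-ratio library sizes took its place. The 3 block fits with another filter, pseudocount or test were added after seeing the data. Ppara, at 9 to 63 reads per library, is the gene that depth limits most.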
